A study of Homo sapiens with 30 samples.

Results

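The genes described here are 57 genes of chromosome 13, spread over its long arm from ZMYM2 at the centromere end to CDC16 near the telomere, in RNA sequencing of the human melanoma line A375. They were chosen by their values in these libraries: as a group, they had lower transcript levels in cells that had crossed a porous membrane 10 times. The values of those cells therefore chose the list, and every difference between them and cells that did not cross is given below as a description that tests nothing. All 57 genes passed the filter on low counts, out of 275 genes of chromosome 13 and 15381 genes of the genome that did so. The remaining 218 chromosome 13 genes are given beside them by count and median.

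Most genes are transcribed from both copies of their chromosome, and transcript levels of many genes on one chromosome can shift together when cells gain or lose a copy of it, or when a population comes to be made of cells that differ in copy number. Copy number was not analysed here. A375 is an established line from a malignant melanoma, a tumour of pigment cells. Chromosome 13 holds known growth regulators such as RB1, the retinoblastoma protein that restrains entry into the cell cycle, BRCA2, which loads the recombinase in repair of broken DNA, and LATS2, a kinase of the Hippo pathway. It also holds EDNRB, an endothelin receptor that pigment cell precursors need in development.

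The study asked how passage through narrow pores, and the state of cells before it, relate to the melanoma cells that migrate. Libraries of polyadenylated RNA were made from 10 groups of 3, all A375 cells sorted with an antibody to integrin β4 (ITGB4, a laminin receptor subunit) as negative or positive against unstained cells. Bottom 10 negative and Bottom 10 positive cells came from a population taken through pores of 5 µm in 10 sequential rounds, and Bottom 5 negative cells from 5 such rounds. By their labels, 2 further groups held parental cells that were sorted first and migrated afterwards, 4 rounds for negative and 5 rounds for positive cells, and they are called presorted here. Top 10 negative, Top 10 positive and Top 5 positive cells stayed above the membrane over 10, 10 and 5 rounds. Parental negative and Parental positive cells had not migrated. The series' text names 5 rounds, and the titles, which give 4, 5 and 10, were followed here. Migrated cells were expanded in culture between rounds, and either of 2 sorters was used, with none named for a given library. Cells grown from a single cell, which the series also names, were not analysed here.

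Gene counts were 14258919 to 29134945 per library. ITGB4 had more counts-per-million (CPM) in the positive than in the negative library of every same-numbered pair of Bottom 10, Top 10 and Parental cells, but some libraries labelled negative exceeded the 35.2 CPM of the lowest Parental positive library: all 3 of Bottom 5 negative (157.0, 51.03 and 51.0 CPM), 2 of presorted negative (321.6 and 56.4 CPM) and Bottom 10 negative replicate 2 (87.8 CPM). Some libraries labelled positive lay below the 24.55 CPM of the lowest Parental negative library. These were replicates 1 and 3 of Top 10 positive (20.37 and 9.84 CPM) and of Top 5 positive (17.88 and 21.38 CPM). Of 10 pigment cell markers, SOX10 had at least 286.9 CPM and MITF at least 23.2 CPM in every library, while MLANA and TYR, at no more than 0.539 CPM, did not pass the filter. PMEL had 0.36 to 1.68 CPM and DCT, itself on chromosome 13, 0.0 to 13.97 CPM. S100A1 had 4.94 to 418.8 CPM, S100B 10.37 to 192.5 CPM, MIA 13.81 to 266.6 CPM and PRAME 114.4 to 216.4 CPM. PECAM1, CDH5 and PTPRC, markers of endothelium and leukocytes, stayed at or below 0.431 CPM, and CD3E was at 0 everywhere. The remaining markers of these lists were higher: VWF, of endothelium, had 0.205 to 2.58 CPM, and CD68, of leukocytes, 22.45 to 155.4 CPM. The summed levels of the pigment cell, fibroblast, keratinocyte, endothelial and leukocyte lists overlapped between Bottom 10 libraries and both the Top 10 and the Parental libraries of the same sort. A score on the second principal component set 6 libraries apart: Bottom 10 positive replicate 3, Bottom 5 negative replicate 2, presorted negative replicate 2, Top 10 negative replicate 1, and Top 5 positive replicates 1 and 3. In these the median of short transcripts (the lowest of 3 equal classes of length) differed from the parental mean by 0.29 to 0.49 on the log2 scale and that of long transcripts by -0.38 to -0.31, against -0.09 to 0.13 and -0.07 to 0.10 in the other 24 libraries. Of the 57 genes, 28 were in the class of longest transcripts and 11 in that of the shortest.

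In each library the 57 genes were summarised as the median of their log2 CPM minus the mean of the 6 parental libraries. This value was -0.19, -0.13 and -0.18 in Bottom 10 negative libraries and -0.37, -0.39 and -0.48 in Bottom 10 positive libraries. It was -0.003, 0.08 and 0.15 in Top 10 negative, 0.06, 0.06 and 0.16 in Top 10 positive, -0.01, 0.005 and 0.07 in Parental negative and -0.13, 0.02 and 0.05 in Parental positive libraries. All 6 Bottom 10 libraries thus lay below all 12 Top 10 and Parental libraries except Parental positive replicate 1, which lay level with Bottom 10 negative replicate 2. In bulk RNA, fewer cells with full expression and less RNA of these genes in every cell cannot be told apart. Bottom 5 negative libraries had -0.13, -0.21 and -0.07, presorted positive libraries -0.08, -0.06 and -0.09, presorted negative libraries -0.11, 0.06 and -0.01, and Top 5 positive libraries -0.01, -0.04 and 0.02. The 3 Bottom 5 and 3 presorted positive libraries were below 0, and those of the remaining pair of groups lay on both sides of it. The median of all 15381 genes stayed between -0.03 and 0.05 in every library.

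**Figure D1:**
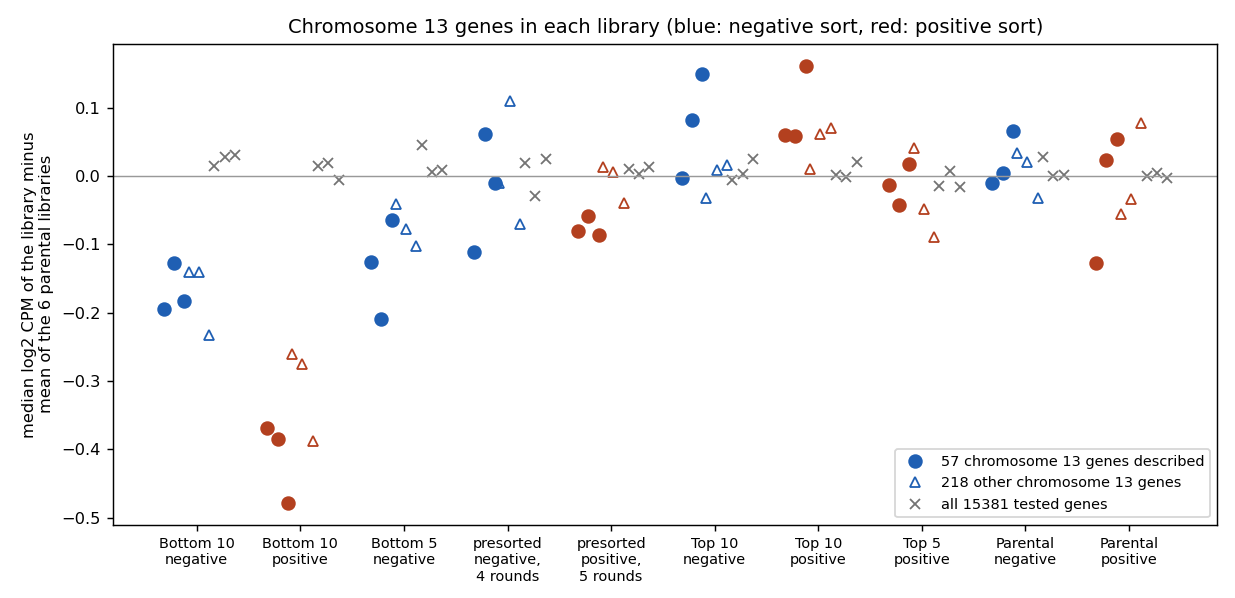
Median difference from the mean of the 6 parental libraries (y axis, log2 CPM) in each of 30 libraries, by group (x axis), for the 57 chromosome 13 genes (filled circles), the 218 other chromosome 13 genes (open triangles) and all 15381 tested genes (crosses), with the negative sort in blue and the positive sort in red. The Bottom 10 positive libraries lie lowest, at -0.37 to -0.48 for the 57 genes, with the Bottom 10 negative libraries at -0.13 to -0.19.

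Between groups, differences are log2 fold changes from an edgeR quasi-likelihood fit over all 30 libraries, with its standard error (SE). A gene is called when its Benjamini-Hochberg adjusted p over all 15381 genes is under 0.05. In Bottom 10 over Parental cells the median log2 fold change of the 57 genes was -0.22 in negative and -0.37 in positive cells, with 49 and 53 of the 57 below 0, while the median of all genes was 0.003 and 0.05. In Bottom 10 over Top 10 cells it was -0.25 in negative and -0.50 in positive cells, with 47 and 55 below 0, while the median of all genes was -0.006 and 0.03. The 2 comparisons of a sort share their Bottom 10 libraries. In all 4 comparisons 42 genes were below 0, and 8 were so in 3 comparisons, 5 in 2 and 2 in 1.

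Few single genes were called. Against Parental cells 1 gene was called lower in the negative sort (TBC1D4), where 0.189% of all genes were called lower, and 1 in the positive sort (USPL1), where 0.117% were. Against Top 10 cells 1 was called lower in the negative sort (TBC1D4), where 0.384% were, and 5 in the positive sort (TBC1D4, RB1, MIPEP, TRIM13 and USPL1), where 0.312% were. The 3 Bottom 10 libraries lay below all 3 Parental libraries for 12 genes in the negative sort (background 7.96% of genes) and 24 in the positive sort (background 9.08%). They lay below all 3 Top 10 libraries for 17 genes in the negative sort (background 7.43%) and 29 in the positive sort (background 7.58%). Same-numbered Top 10 and Bottom 10 libraries deviated together, and with replicate number as a block, in a fit of these groups alone, 9 genes were called lower and 1 higher in the negative sort and 24 lower in the positive sort, against backgrounds of 4.59% lower, 4.7% higher and 3.82% lower. When single libraries were left out, the TBC1D4 calls against Top 10 cells held in all 6 fits of each sort, and every other call here was lost in at least 4 of its 6 fits. With only the compared groups in the fit 0 of the listed genes were called in each of these comparisons. Against Parental cells that fit called 0.0% of all genes in both sorts. Against Top 10 cells it called 1.1% of all genes in the negative sort and 0.22% in the positive sort. These counts describe the values that chose the list.

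The lower levels ran along the whole arm. In Bottom 10 over Parental cells the first 19 genes (ZMYM2 to ALG5) had a median of -0.18 in negative and -0.48 in positive cells, the next 19 (EXOSC8 to PIBF1) -0.27 and -0.37, and the last 19 (KLF5 to CDC16) -0.22 and -0.37. The other chromosome 13 genes, divided at the same places and taken to both ends of the arm, had medians of -0.32 and -0.42, -0.16 and -0.28, and -0.21 and -0.19. Of all 218 others, 160 in negative and 152 in positive cells were below 0, with medians of -0.22 and -0.25. These others were not named by the rule, but they come from the same libraries and comparison and are likewise a description.

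**Figure D2:**
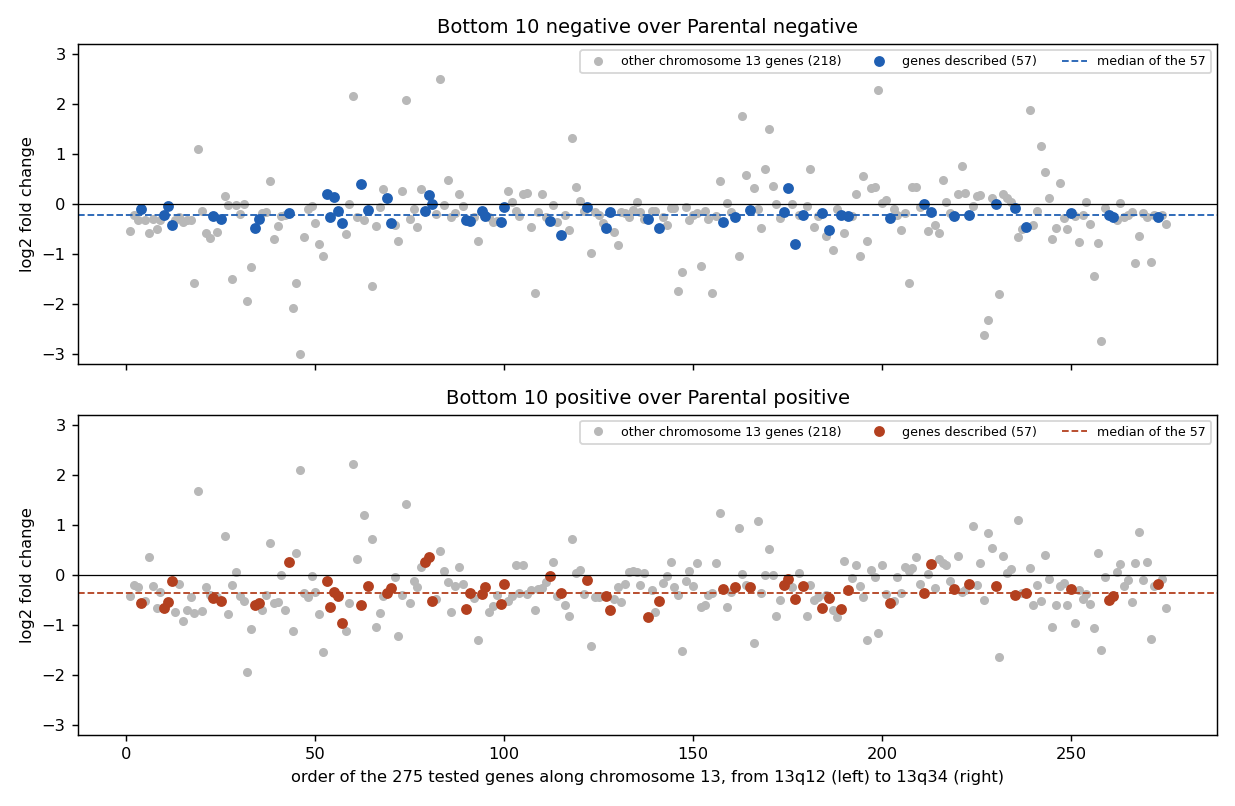
Log2 fold change of Bottom 10 over Parental cells (y axis, values beyond 3 drawn at 3) against the order of the 275 tested genes along chromosome 13 (x axis), for the negative sort (top) and the positive sort (bottom). The 57 genes (coloured) and the 218 others (grey) lie mostly below 0 from end to end, and the dashed medians of the 57 are at -0.22 and -0.37.

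Among 23 chromosomes, chromosome 13 had the lowest median in all 4 Bottom 10 comparisons. These comparisons chose the listed genes, which are part of chromosome 13, so its rank in them is a description that tests nothing. Over Parental cells its 275 genes had -0.22 in negative and -0.31 in positive cells, and the next lowest were chromosome 22 at -0.09 and chromosome 17 at -0.01. Over Top 10 cells they had -0.22 and -0.41, and the next lowest were chromosome 16 at -0.07 and chromosome 5 at -0.02. In Bottom 5 negative over Parental negative cells, a comparison the rule did not use, chromosome 13 was second from lowest at -0.09, above chromosome 20 at -0.23. Chromosome 20 was lowest in both presorted groups over Parental cells, at -0.25 in negative and -0.14 in positive cells, where chromosome 13 was at 0.02 and -0.04.

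**Figure D3:**
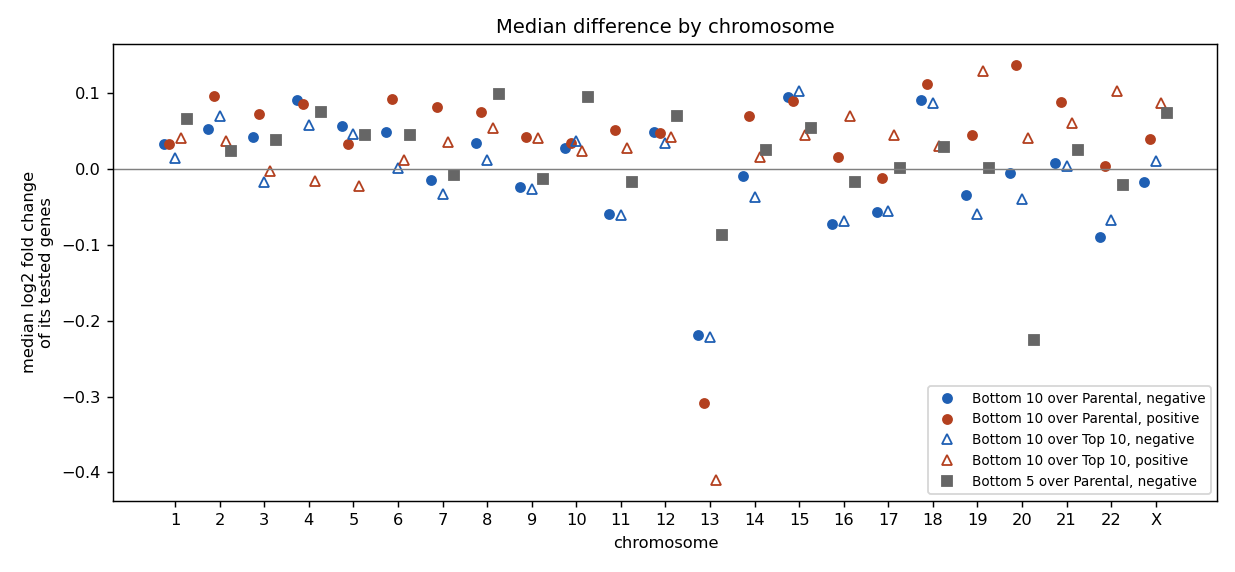
Median log2 fold change of the tested genes of each chromosome (y axis) for 23 chromosomes (x axis), in the 4 Bottom 10 comparisons (circles over Parental, triangles over Top 10, blue negative sort, red positive sort) and in Bottom 5 over Parental negative cells (grey squares). Chromosome 13 is lowest in the 4 Bottom 10 comparisons, at -0.22 to -0.41, and chromosome 20 is lowest in the Bottom 5 comparison, at -0.23. The Bottom 10 comparisons chose the listed genes of chromosome 13, so its place in them is a description.

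Promoters of 4 genes are shown with the short motifs they hold, because these genes stood at opposite ends of the range: EDNRB, FOXO1 and COG3 were among the 8 lowest by the mean of the 4 Bottom 10 comparisons, and KLF5 was the highest. The sequences are RefSeq's, on GRCh38.p14, of 300 bases with 250 before the start of the gene. They lie at chr13:77919633-77919932 (minus strand) for EDNRB, chr13:40666592-40666891 (minus) for FOXO1, chr13:45464689-45464988 (plus) for COG3 and chr13:73054726-73055025 (plus) for KLF5. Capitals mark matches on either strand to a GC box, a CCAAT box, a TATA box, an E-box or an ETS core, whose letters follow the sequences and none of which overlap in these sequences.
EDNRB: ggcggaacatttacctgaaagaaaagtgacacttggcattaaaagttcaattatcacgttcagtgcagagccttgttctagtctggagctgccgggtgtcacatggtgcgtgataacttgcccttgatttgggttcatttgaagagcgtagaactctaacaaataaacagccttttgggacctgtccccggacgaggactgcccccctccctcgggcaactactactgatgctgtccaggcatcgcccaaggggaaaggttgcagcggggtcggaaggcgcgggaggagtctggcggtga
FOXO1: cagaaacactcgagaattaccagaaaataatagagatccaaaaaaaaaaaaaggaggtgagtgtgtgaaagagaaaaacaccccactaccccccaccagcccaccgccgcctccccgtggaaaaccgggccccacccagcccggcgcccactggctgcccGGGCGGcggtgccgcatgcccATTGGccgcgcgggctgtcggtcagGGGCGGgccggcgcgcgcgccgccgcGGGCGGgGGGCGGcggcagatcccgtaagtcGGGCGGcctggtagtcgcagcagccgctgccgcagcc
COG3: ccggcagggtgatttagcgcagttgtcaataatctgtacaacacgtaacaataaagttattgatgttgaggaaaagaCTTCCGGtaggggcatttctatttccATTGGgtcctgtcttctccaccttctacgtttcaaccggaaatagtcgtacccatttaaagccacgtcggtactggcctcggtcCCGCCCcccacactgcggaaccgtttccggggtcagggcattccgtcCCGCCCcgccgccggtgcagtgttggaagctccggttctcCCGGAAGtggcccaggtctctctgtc
KLF5: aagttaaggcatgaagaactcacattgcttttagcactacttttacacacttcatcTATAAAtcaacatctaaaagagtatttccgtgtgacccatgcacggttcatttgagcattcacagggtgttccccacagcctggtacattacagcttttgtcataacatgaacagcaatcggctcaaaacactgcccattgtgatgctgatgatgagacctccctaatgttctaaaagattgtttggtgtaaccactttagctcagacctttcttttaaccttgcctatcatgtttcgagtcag

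The FOXO1 window held 5 GC boxes and 1 CCAAT box, the COG3 window 2 GC boxes, 1 CCAAT box and 2 ETS cores, the KLF5 window 1 TATA box, and the EDNRB window none of the letters searched. A promoter entry was found for 50 of the 57 genes. A GC box, searched as GGGCGG, stood in 68.0% of these 50, against 44.59% of all 27305 promoters in the table, which cover noncoding genes too. The ETS core, searched as CCGGAAG, stood in 24.0% of the 50 and 10.67% of all promoters. The E-box, searched as CACGTG, stood in 16.0% and 7.435% of them. The CCAAT box, whose name gives its letters, stood in 34% and 35.7%, and the TATA box, searched as TATAAA, in 10.0% and 11.95%. Median GC content was 66.0% in the 50 and 58.33% in all promoters.

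Receptors, carriers and kinases at the surface numbered 4, and in Bottom 10 over Parental cells 3 of them were below 0 in each sort, with none called. EDNRB had the lowest mean of the 4 Bottom 10 comparisons. It had 42.4, 40.4 and 21.3 CPM in Bottom 10 negative libraries, against 88.8, 100.5 and 42.5 CPM in Top 10 negative and 98.2, 27.9 and 21.8 CPM in Parental negative libraries. It had 24.4, 22.6 and 10.95 CPM in Bottom 10 positive libraries, against 72.0, 74.8 and 35.7 CPM in Top 10 positive and 14.6, 13.4 and 52.4 CPM in Parental positive libraries. Bottom 10 lay wholly below Top 10 in both sorts, with log2 fold changes of -1.16 and -1.65, and overlapped the Parental libraries, which spread widely. ABCC4, an export pump for cyclic nucleotides and drugs, had 28.4, 33.3 and 24.2 CPM in Bottom 10 positive libraries, against 39.7, 36.8 and 50.4 CPM in Parental positive libraries. Those groups did not overlap, but the Bottom 10 negative libraries, at 30.1, 37.8 and 42.9 CPM, overlapped the Parental negative libraries, at 41.7, 45.3 and 46.3 CPM. SLC7A1, a carrier of cationic amino acids, was among the 4 highest, with log2 fold changes of 0.20 in negative and -0.13 in positive cells over Parental cells and overlapping libraries in both.

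Membrane traffic, with 8 genes, had 8 below 0 in the negative sort and 7 in the positive sort over Parental cells. TBC1D4, a regulator of Rab proteins in vesicle traffic and a substrate of the kinase Akt, had 57.6, 48.4 and 74.4 CPM in Bottom 10 negative libraries, against 110.6, 123.5 and 118.4 CPM in Top 10 negative and 119.4, 103.4 and 92.9 CPM in Parental negative libraries. In Bottom 10 positive libraries it had 56.2, 40.3 and 41.8 CPM, against 119.6, 96.7 and 113.1 CPM in Top 10 positive and 56.99, 61.8 and 74.4 CPM in Parental positive libraries. Each Bottom 10 group lay below both of its comparison groups without overlap, with log2 fold changes of -0.97 and -1.25 over Top 10 and -0.81 and -0.48 over Parental cells. COG3, a subunit of a tethering complex of the Golgi, had 24.1, 30.3 and 25.7 CPM in Bottom 10 negative libraries, against 50.2, 37.1 and 35.3 CPM in Parental negative libraries. In Bottom 10 positive libraries it had 24.4, 33.8 and 22.6 CPM, against 31.8, 33.4 and 39.3 CPM in Parental positive libraries. The negative groups did not overlap and the positive groups did. ITM2B, a membrane protein of the secretory route, had 113.9, 109.1 and 81.8 CPM in Bottom 10 negative libraries, against 171.5, 133.4 and 116.8 CPM in Parental negative libraries. It had 92.0, 88.2 and 92.3 CPM in Bottom 10 positive libraries, against 116.3, 124.9 and 124.1 CPM in Parental positive libraries, and the groups of neither sort overlapped. For LAMP1, a glycoprotein of the lysosomal membrane, the log2 fold change over Parental cells was -0.25 in negative and -0.42 in positive cells, and the groups were apart in the positive sort alone. NBEA, a scaffold of membrane traffic best known in neurons, had 11.5, 11.2 and 3.35 CPM in Bottom 10 positive libraries, against 19.8, 19.7 and 11.6 CPM in Top 10 positive libraries. Its lowest value was in replicate 3, the library that stood apart. These groups did not overlap, while Bottom 10 positive overlapped Parental positive libraries (11.4, 8.42 and 11.7 CPM). Bottom 10 negative libraries, at 12.6, 12.6 and 11.3 CPM, overlapped Top 10 negative libraries, at 10.3, 25.2 and 14.4 CPM, and lay below Parental negative libraries, at 19.5, 13.8 and 14.3 CPM.

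Transcription and chromatin regulators numbered 8, with 7 below 0 in each sort over Parental cells. FOXO1, a forkhead factor that Akt keeps out of the nucleus, had 10.5, 10.1 and 4.65 CPM in Bottom 10 positive libraries, against 19.4, 22.9 and 16.7 CPM in Top 10 positive and 8.54, 6.99 and 25.2 CPM in Parental positive libraries. It lay below Top 10 without overlap and overlapped the Parental libraries, which spread widely, with replicate 3 below all of them. KLF5, a zinc finger factor of proliferating epithelia, was the highest of the 57, with 79.9, 118.2 and 87.3 CPM in Bottom 10 negative libraries, against 28.8, 56.5 and 62.0 CPM in Top 10 negative and 44.3, 88.5 and 94.4 CPM in Parental negative libraries. In Bottom 10 positive libraries it had 130.4, 155.1 and 107.9 CPM, against 72.3, 91.0 and 101.7 CPM in Top 10 positive and 131.7, 152.9 and 134.4 CPM in Parental positive libraries. It lay above Top 10 without overlap in both sorts, by log2 fold changes of 0.96 and 0.57, and overlapped the Parental libraries in both. CDK8, the kinase of the Mediator complex, had 12.7, 14.8 and 10.2 CPM in Bottom 10 positive libraries, against 18.2, 19.2 and 18.6 CPM in Parental positive libraries, with no overlap. HMGB1, an abundant DNA-bending protein, spread from 234 to 717 CPM within the Bottom 10 positive libraries alone and overlapped its comparison groups throughout.

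Regulators of the cell cycle and of genome maintenance numbered 10, of which 7 in negative and 10 in positive cells were below 0 over Parental cells. RB1 had 69.7, 55.6 and 57.9 CPM in Bottom 10 positive libraries, against 118.8, 94.0 and 117.2 CPM in Top 10 positive and 79.4, 97.0 and 122.2 CPM in Parental positive libraries. In Bottom 10 negative libraries it had 83.9, 80.7 and 75.9 CPM, against 83.6, 90.7 and 111.1 CPM in Top 10 negative and 80.1, 91.2 and 96.1 CPM in Parental negative libraries. The positive groups were apart, with log2 fold changes of -0.85 over Top 10 and -0.71 over Parental cells, and the negative groups overlapped. BRCA2 had opposite signs in the sorts, with log2 fold changes of 0.41 ± 0.54 (SE) in negative and -0.61 ± 0.54 in positive cells over Parental cells, and libraries overlapped in both. LATS2 had 43.8, 40.5 and 27.3 CPM in Bottom 10 positive libraries, against 53.8, 52.6 and 56.5 CPM in Parental positive libraries, without overlap, and its log2 fold change in the negative sort was -0.04. ING1, which reads methylated histone H3, had log2 fold changes of -0.17 and -0.29 over Parental cells and overlapped them in both sorts.

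Protein modification and turnover, with 10 genes, had 9 below 0 in negative and 10 in positive cells over Parental cells. USPL1, a protease that removes SUMO, had 11.4, 10.1 and 11.3 CPM in Bottom 10 positive libraries, against 18.3, 17.4 and 20.8 CPM in Top 10 positive and 19.3, 21.3 and 23.3 CPM in Parental positive libraries. In Bottom 10 negative libraries it had 14.9, 17.1 and 18.9 CPM, against 12.8, 20.6 and 21.2 CPM in Top 10 negative and 24.7, 19.95 and 21.9 CPM in Parental negative libraries. The positive group was below both, and the negative group was below Parental but not Top 10 cells. TRIM13, a ubiquitin ligase of the endoplasmic reticulum, had 24.1, 22.7 and 24.3 CPM in Bottom 10 negative libraries, against 34.5, 28.6 and 33.7 CPM in Top 10 negative and 34.3, 32.4 and 31.8 CPM in Parental negative libraries. It had 19.96, 14.7 and 24.3 CPM in Bottom 10 positive libraries, against 31.2, 31.0 and 34.6 CPM in Top 10 positive and 25.7, 30.1 and 28.7 CPM in Parental positive libraries, so that it was below both comparison groups in both sorts. CUL4A, the scaffold of a ubiquitin ligase active at damaged DNA, had 148.4, 155.0 and 151.9 CPM in Bottom 10 positive libraries, against 210.7, 230.5 and 207.1 CPM in Parental positive libraries, also without overlap.

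The smaller groups ran the same way. Nuclear transport (3 genes) had 2 below 0 in negative and 3 in positive cells over Parental cells, RNA processing (6 genes) 5 and 5, and mitochondria and metabolism (5 genes) 5 and 5. MIPEP, a peptidase of the mitochondrial matrix named here after its values were seen, had 21.1, 16.7 and 17.7 CPM in Bottom 10 positive libraries, against 30.1, 26.5 and 31.4 CPM in Top 10 positive libraries. EXOSC8, a subunit of the RNA exosome, was above 0 in 3 of the 4 comparisons, with 44.2, 48.5 and 66.9 CPM in Bottom 10 positive libraries, against 43.8, 45.7 and 34.9 CPM in Parental positive libraries. The groups overlapped, and the highest value was in replicate 3, which stood apart. TPT1, the translationally controlled tumour protein, had 1273 to 1404 CPM in Bottom 10 positive and 1339 to 1395 CPM in Parental positive libraries, and its log2 fold change was -0.04. Over Parental cells the 11 genes of short transcripts had a median of -0.22 in negative and -0.19 in positive cells, and the 28 of long transcripts -0.18 and -0.43. Without the 6 libraries that stood apart, a choice made after seeing them, the median of the 57 genes in the positive sort was -0.45 over Parental and -0.55 over Top 10 cells.

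**Figure D4:**
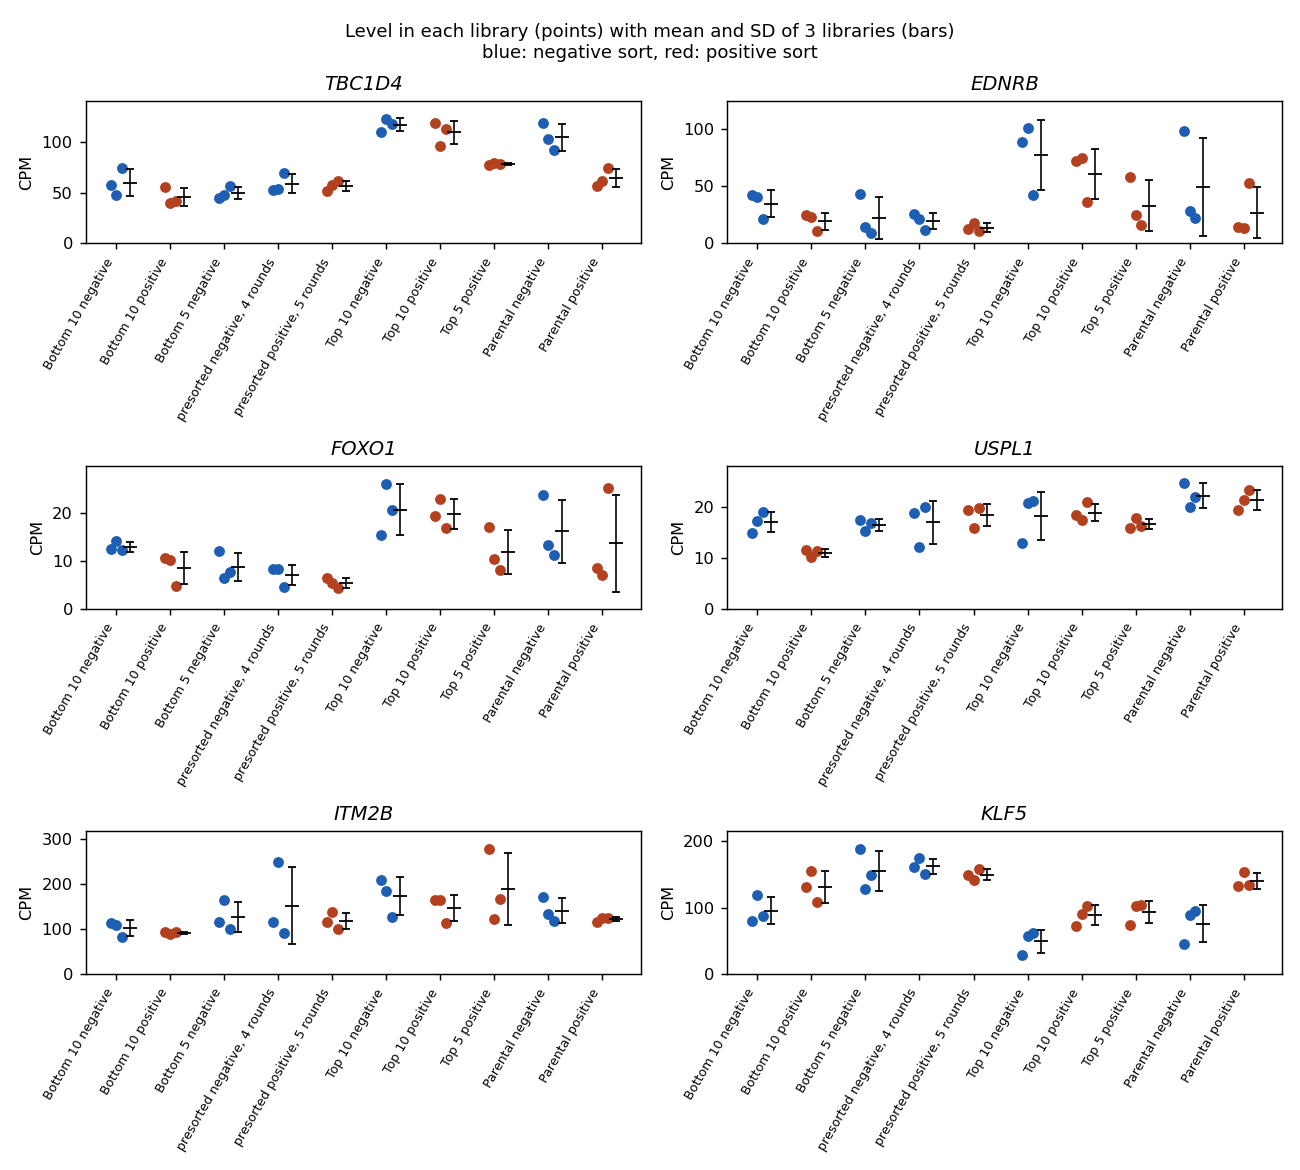
Level (y axis, CPM) of 6 genes in each library (points), with the mean and SD of 3 libraries beside them (bars), by group (x axis), negative sort in blue and positive sort in red. TBC1D4 lies at 40.3 to 74.4 CPM in the Bottom 10 libraries and at 96.7 to 123.5 CPM in the Top 10 libraries. KLF5 lies higher in Bottom 10 than in Top 10 libraries of the same sort, and EDNRB and FOXO1 spread widely within the Parental groups.

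Comparisons that the rule did not use can be tested, but their Parental and Top 10 libraries were the references in the Bottom 10 comparisons that chose the list. In Top 10 over Parental cells, which share their libraries with the Bottom 10 comparisons, the median of the 57 genes was 0.03 in negative and 0.11 in positive cells, with 23 and 21 below 0, and the median of all genes was 0.003 and 0.006. In the negative sort 0 of 57 were called (edgeR, adjusted over all genes), where 0.0455% of all genes were, and 2 had an unadjusted p under 0.05, against 4.74% of all genes. DESeq2 called 0 there as well, against 0.217% of all genes with a count. In the positive sort 1 was called, where 0.384% of all genes were: TBC1D4 rose, with 119.6, 96.7 and 113.1 CPM in Top 10 positive libraries, against 56.99, 61.8 and 74.4 CPM in Parental positive libraries. All Top 10 positive libraries were above all Parental positive ones, with log2 fold change 0.77 ± 0.17 (SE, edgeR adjusted p = 0.0444). That call was lost when any 1 of 5 libraries was left out (edgeR adjusted p of up to 0.349), and held without Parental positive replicate 3. The median of 0.11 moved to 0.008 without Parental positive replicate 1. In the negative sort the median ran from -0.015 without Top 10 negative replicate 3 to 0.09 without replicate 1, and was 0.003 without replicate 2 or without Parental negative replicate 2. Summed fibroblast markers were 18.3 to 29.1 CPM in Top 10 negative against 32.9 to 39.7 CPM in Parental negative libraries. They were 20.8 to 30.4 CPM in Top 10 positive against 32.1 to 49.8 CPM in Parental positive libraries. Over all libraries PDGFRB had 7.13 to 34.9 CPM, COL1A1 1.53 to 17.7 CPM and LUM 1.40 to 11.4 CPM. DCN had 0.451 to 2.52 CPM, and COL1A2 was at most at 0.497 CPM. The part of fibroblast markers in these values was not tested.

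In Bottom 5 negative over Parental negative cells, which share the Parental libraries with the Bottom 10 comparison, the median of the 57 genes was -0.11 and 40 were below 0, while the median of all genes was 0.02 and that of the other chromosome 13 genes -0.07. The median ran from -0.17 without Bottom 5 negative replicate 3 to -0.07 without replicate 2, and was -0.14 without replicate 1, the highest of them in ITGB4. The 3 Bottom 5 libraries lay below all 3 Parental negative libraries for 6 genes (background 6.59%), and 1 gene was called lower, where 0.592% of all genes were. This was TBC1D4, with 45.4, 48.4 and 56.8 CPM in Bottom 5 negative libraries, against 119.4, 103.4 and 92.9 CPM in Parental negative libraries. The groups were well apart, with log2 fold change -1.07 ± 0.17 (edgeR adjusted p = 0.00225). The call held in all 6 fits that left out 1 library (edgeR adjusted p of 0.00284 to 0.0308) and without the libraries that stood apart (0.0229), but not with only these groups in the fit (edgeR adjusted p = 0.189). The fit of only these groups called 0.0% of all genes. Same-numbered libraries of these groups deviated together, and with a replicate block in a fit of these groups alone 2 genes were called lower, where 2.64% of all genes were: TBC1D4 (edgeR adjusted p = 0.0178) and EDNRB (log2 fold change -1.12 ± 0.15, edgeR adjusted p = 0.0105). EDNRB had 42.9, 14.1 and 9.52 CPM in Bottom 5 negative libraries, against 98.2, 27.9 and 21.8 CPM in Parental negative libraries, lower in each same-numbered pair though the groups overlap. KLF5, at 187.5, 127.6 and 148.6 CPM, was above all Parental negative libraries but was not called (log2 fold change 1.03 ± 0.27, edgeR adjusted p = 0.067). It was called higher with the block in the fit of all groups (edgeR adjusted p = 0.0257), where 0.455% of all genes were. With the block in the fit of these groups alone it was not called. At TBC1D4 and KLF5, Parental positive libraries differed from Parental negative ones in the same directions, without overlap, as given below. ITGB4 had 157.0, 51.03 and 51.0 CPM in Bottom 5 negative libraries, against 24.55, 33.7 and 25.11 CPM in Parental negative libraries. The part of ITGB4 level in these differences was not tested.

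In presorted negative cells after 4 rounds, over Parental negative cells, the 57 genes were spread about 0, with a median of -0.01 and 29 below 0. The calls numbered 1 higher and 1 lower, where 0.904% and 1.1% of all genes were. KLF5 rose, with 161.2, 174.3 and 151.0 CPM in presorted negative libraries, against 44.3, 88.5 and 94.4 CPM in Parental negative libraries (log2 fold change 1.10 ± 0.27, edgeR adjusted p = 0.0317). TBC1D4 fell, with 53.4, 53.8 and 70.1 CPM in presorted negative libraries, against 119.4, 103.4 and 92.9 CPM in Parental negative libraries (log2 fold change -0.83 ± 0.17, edgeR adjusted p = 0.0111). Neither pair of groups overlapped. At both genes, Parental positive libraries differed from Parental negative ones in the same directions, without overlap, as given below. ITGB4 had 321.6, 27.21 and 56.36 CPM in presorted negative libraries, against 24.55, 33.7 and 25.11 CPM in Parental negative libraries. The part of ITGB4 level in these differences was not tested. The TBC1D4 call was lost without Parental negative replicate 1 or presorted negative replicate 2 (edgeR adjusted p of up to 0.105), and the KLF5 call without these or Parental negative replicate 2 (up to 0.229). Both were lost with only these groups in the fit (edgeR adjusted p = 0.369 for TBC1D4 and 0.436 for KLF5), which called 0.0% of all genes. Without the libraries that stood apart KLF5 was called (edgeR adjusted p = 0.0432) and TBC1D4 was not (0.0611), and the median of the 57 genes was -0.08.

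In presorted positive cells after 5 rounds, over Parental positive cells, the median was -0.05 and 34 of 57 were below 0. It was -0.11 without Parental positive replicate 1 and 0.008 without replicate 3. None was called by edgeR or DESeq2, where 0.039% of all genes were called by edgeR, and 1 had an unadjusted p under 0.05, against 3.01% of all genes (0.108% called by DESeq2). TBC1D4 had 51.6, 57.4 and 61.4 CPM in these cells, within reach of the 56.99, 61.8 and 74.4 CPM of Parental positive libraries. FOXO1 had the largest difference of the 57 here, with 6.37, 5.28 and 4.37 CPM in presorted positive libraries, against 8.54, 6.99 and 25.2 CPM in Parental positive libraries. The groups did not overlap, but the difference was not called (log2 fold change -1.34 ± 0.42, edgeR adjusted p = 0.897), and Parental positive replicate 3 lay far above the other two. Summed keratinocyte markers were 142.4 to 165.1 CPM in presorted positive and 86.2 to 123.8 CPM in Parental positive libraries. Over all libraries KRT10 had 62.9 to 187.2 CPM and KRT14 0.227 to 39.95 CPM. KRT5, KRT1 and TP63 were at or below 0.811 CPM in every library. The part of keratinocyte markers in these values was not tested.

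Top 5 positive cells gave a median of -0.001 over Parental positive cells, with 29 of 57 below 0. None was called by edgeR or DESeq2, where 0.163% of all genes were called by edgeR, and 16 had an unadjusted p under 0.05, against 17.4% of all genes (0.33% called by DESeq2). Without Top 5 positive replicate 2, which leaves the pair of its libraries that stood apart, 7 were called, where 7.69% of all genes were. Presorted positive over Top 5 positive cells, which differ in crossing and also in whether sorting came before or after migration, gave a median of -0.08 with 32 below 0, and 0.03 without the libraries that stood apart. None was called by edgeR, where 2.05% of all genes were, 14 had an unadjusted p under 0.05, against 19.8% of all genes, and DESeq2 called 1, where it called 3.53% of all genes. Without Top 5 positive replicate 2 edgeR called 6, where it called 8.24% of all genes. At 11 genes of short transcripts and 28 of long ones, the medians were -0.42 and 0.03 in this comparison and 0.55 and -0.21 in Top 5 positive over Parental positive cells. The part of transcript length in these values was not tested.

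The sorts were compared within each population, and the Bottom 10 libraries of both had a part in choosing the list. Bottom 10 positive over Bottom 10 negative cells had a median of -0.19, with 43 of 57 below 0 and chromosome 13 again lowest of 23 chromosomes at -0.15, while the median of all genes was 0.03. None was called by edgeR or DESeq2, as was true of 0.0% of all genes by edgeR, and 4 had an unadjusted p under 0.05, against 3.57% of all genes (0.0226% called by DESeq2). The positive libraries lay below all negative ones for 13 genes (background 5.84%). With a replicate block in the fit of Top 10 and Bottom 10 groups alone 1 was called lower, where 0.487% of all genes were: EDNRB, with 24.4, 22.6 and 10.95 CPM in Bottom 10 positive libraries, against 42.4, 40.4 and 21.3 CPM in Bottom 10 negative libraries. It was lower in the positive library of each same-numbered pair. Without a block, and with a replicate block in the fit of all groups, 0 were called. Since these libraries chose the list, the call and the rank of chromosome 13 are a description. Over the 28 genes of long transcripts the median was -0.26 and over the 11 of short transcripts 0.09, and replicate 3 of the positive libraries was one that stood apart.

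In the other populations, whose libraries were the references in the Bottom 10 comparisons, the medians between sorts were near 0. The median of Top 10 positive over Top 10 negative cells was 0.04, with 22 below 0, and that of Parental positive over Parental negative cells was 0.009, with 27 below 0. In Top 10 cells edgeR and DESeq2 called none, where edgeR called 0.013% of all genes, and 1 had an unadjusted p under 0.05, against 1.71% of all genes (0.0226% called by DESeq2). In Parental cells edgeR called none, where it called 0.0585% of all genes, 2 had an unadjusted p under 0.05, against 4.45% of all genes, and DESeq2 called TBC1D4, where it called 0.339% of all genes. TBC1D4 had 56.99, 61.8 and 74.4 CPM in Parental positive libraries, against 119.4, 103.4 and 92.9 CPM in Parental negative libraries, without overlap (log2 fold change -0.71 ± 0.17, edgeR adjusted p = 0.133). KLF5 had 131.7, 152.9 and 134.4 CPM in Parental positive libraries, against 44.3, 88.5 and 94.4 CPM in Parental negative libraries, also without overlap (log2 fold change 0.88 ± 0.26, edgeR adjusted p = 0.347). Neither was called by edgeR.

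Differences of differences, positive minus negative sort, were fitted gene by gene. Those of Bottom 10 cells rest on the values that chose the list and are a description. For Bottom 10 over Parental cells the median of the 57 genes was -0.14, for Bottom 10 over Top 10 cells -0.29 and for Top 10 over Parental cells 0.07. None of the 57 was called in any of these by edgeR or DESeq2, and edgeR called 0.0% of all genes, and DESeq2 0.00903%, 0.0% and 0.00451%. At an unadjusted p under 0.05 there were 2, 4 and 1 genes in that order, against 3.01%, 2.87% and 0.819% of all genes.

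**Figure D5:**
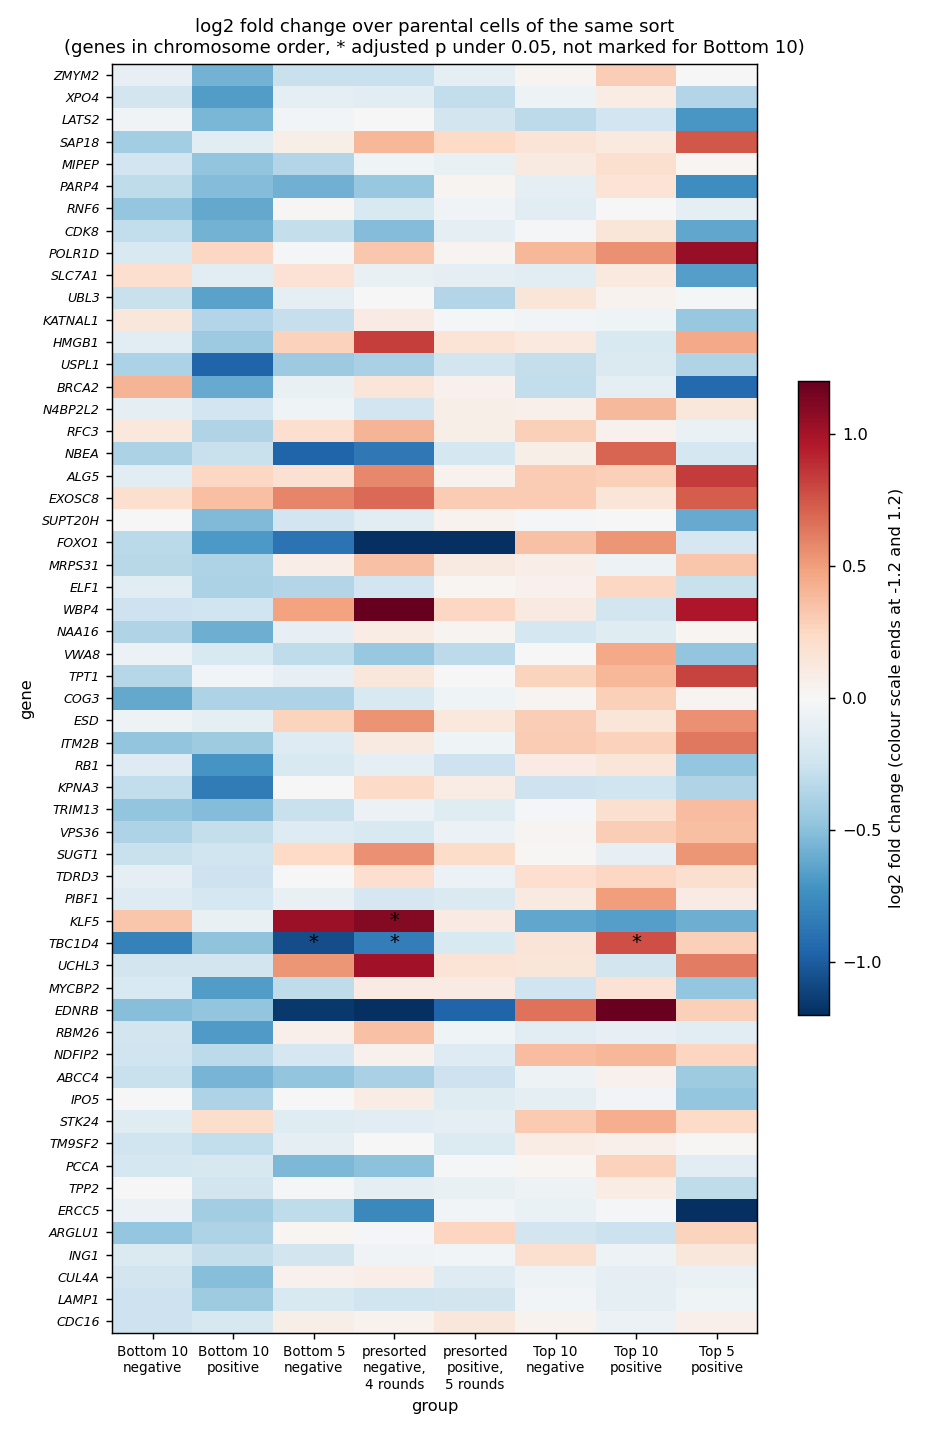
Log2 fold change over Parental cells of the same sort (colour, red higher and blue lower, the scale ending at -1.2 and 1.2) for the 57 genes in chromosome order (down the page) in 8 groups (across), with an asterisk where the edgeR adjusted p is under 0.05, left out for the Bottom 10 columns. Blue covers most of the Bottom 10 columns, and the asterisks are at KLF5 and TBC1D4 in the presorted negative column and at TBC1D4 in the Bottom 5 negative and Top 10 positive columns.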

How the data were processed

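Whole-number counts per gene were deposited by the authors, 1 file for each of 30 libraries of polyadenylated RNA. The submitters' processing notes name STAR, HTSeq, DESeq and the build hg19; versions, annotation and strand setting are not given in the sources used here. Entries that name no gene held 22.1% to 31.8% of reads and were left out. Gene symbols were placed on chromosomes, and ordered along them, with RefSeq on GRCh38.p14 (98.1% of tested genes matched). The match was by symbol, or by an older symbol that belongs to a single gene. RefSeq was used for names and order only, apart from the promoters, since its build is not that of the counts. Transcript length is that of the longest transcript of each symbol in GENCODE 29 (94.1% of tested genes matched).

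Of 26364 genes listed, 15381 passed filterByExpr (minimum count 10, minimum total 15). Levels are CPM with TMM normalisation, and log2 levels use a prior count of 2. Differences come from edgeR 4.0.16 (R 4.3.3), glmQLFit and glmQLFTest over all 10 groups, with Benjamini-Hochberg adjustment over all tested genes and a threshold of 0.05. The SE is the log2 fold change divided by the root of F. Tables were made with pandas 2.3.3. The scripts were tested on simulated data. Groups follow the labels, which number biological replicates but name no culture of origin for them; the p-values thus reflect the spread between these samples, which may be technical.

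Alternatives were DESeq2 1.42.0, RLE normalisation, no filter, fits of only the compared groups, each library left out, a replicate block, and, chosen after seeing the data, leaving out 6 libraries that stand apart (score above 30 on the second principal component) and a block for Bottom 5 over Parental negative cells alone. Same-numbered libraries were taken as paired where all 3 correlations of their deviations from the group means were over 0.1. For the comparisons described here the lowest were 0.41 (Bottom 10 and Top 10 negative), 0.26 (Bottom 10 and Top 10 positive), 0.28 (Bottom 10 positive and negative), 0.31 (Top 10 positive and negative) and 0.38 (Bottom 5 and Parental negative). The rule also held for presorted negative with Bottom 5 negative (0.47) and presorted positive (0.20), and for Top 10 positive with Bottom 10 negative (0.33). It held for Parental negative with Top 5 positive (0.21) and presorted positive (0.11). It did not hold for Top 10 negative with Bottom 10 positive (-0.12), though the block covered both in the fit of Top 10 and Bottom 10 groups. The labels name no shared culture or day, so this pairing rests on the data.

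The 57 genes, their roles and all lists were chosen with earlier results of these data known. Genes named with values are the 8 lowest and 4 highest by the mean of the 4 Bottom 10 comparisons, up to 4 genes called in each direction in comparisons the choice of genes did not use, and 14 regulators fixed for their known roles. MIPEP falls outside this and was named after its values were seen, as 1 of 5 called genes.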

Additional observations from a re-analysis of the deposited data

How the results depend on the processing

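Across the alternatives no median of the 57 genes in the 4 Bottom 10 comparisons changed sign, and counts of called genes moved with the fit. With only the compared groups, calls numbered 0 in every comparison that had one: Bottom 10 over Parental (1 in each sort otherwise), Bottom 10 over Top 10 (1 and 5), Top 10 positive over Parental (1), presorted negative (2) and Bottom 5 negative (1). That fit called 0.0% of all genes in Bottom 10 over Parental cells of both sorts, presorted negative and Bottom 5 negative cells. It called 1.1% and 0.22% in Bottom 10 over Top 10 (negative and positive) and 0.0909% in Top 10 positive over Parental cells. DESeq2 called 2 in Bottom 10 positive over Parental (0.51% of all genes), 3 and 9 in Bottom 10 over Top 10 (negative 1.73%, positive 1.26%), 2 in Top 10 positive over Parental (0.948%), 2 in Bottom 5 negative (1.42%), 1 in presorted positive over Top 5 positive (3.53%) and 1 between the Parental sorts (0.339%). Without a filter on low counts, calls were 0 in Bottom 10 negative over Parental (0.149% of all genes) and 3 in Bottom 10 positive over Top 10 (0.492%). They were then 0 in Top 10 positive over Parental (0.203%) and 1 in presorted negative cells (0.952%), and the presorted positive over Top 5 positive median was -0.004.

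With a replicate block in the fit of all groups, calls were 2 in Bottom 10 over Top 10 negative (1.89% of all genes) and 2 in Bottom 5 negative cells (1.43%). With the replicate block in fits of the paired groups alone they were 10 and 24 in Bottom 10 over Top 10 (negative 9.29%, positive 7.75%), 1 between the Bottom 10 sorts (0.83%) and 2 in Bottom 5 negative cells (3.82%). The replicate block changed no other count beyond 1.5 times.

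Without the 6 libraries that stand apart, calls were 3 in Bottom 10 positive over Parental (0.34% of all genes), 2 in Bottom 10 over Top 10 negative (0.861%), 0 in Top 10 positive over Parental (0.679%), 1 in presorted negative (1.6%) and 2 in Bottom 5 negative cells (0.478%). Medians were then 0.105 in Top 10 negative over Parental, -0.084 in presorted negative and 0.034 in presorted positive over Top 5 positive cells.

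Leaving out 1 library gave these ranges of calls, with the range over the same fits of the share of all genes called. There were 0 to 1 in Bottom 10 negative over Parental (0.032% to 0.25%) and 0 to 0 in Bottom 10 positive over Parental (0.0704% to 0.115%). There were 1 to 3 in Bottom 10 positive over Top 10 (0.34% to 0.723%) and 0 to 1 in Top 10 positive over Parental (0.128% to 0.647%). Calls were 0 to 3 in presorted negative (0.378% to 3.18%) and 0 to 7 in Top 5 positive cells (0.0384% to 7.69%). In presorted positive over Top 5 positive cells they were 0 to 6 (0.622% to 8.24%). Medians ranged from 0.008 to 0.139 in Top 10 positive over Parental, -0.015 to 0.092 in Top 10 negative over Parental, -0.111 to 0.008 in presorted positive over Parental, -0.174 to -0.071 in Bottom 5 negative, -0.119 to -0.009 in presorted positive over Top 5 positive and -0.25 to -0.17 between the Bottom 10 sorts. Where values moved, the cause was not tested. Genes of few counts, such as NBEA at 3.35 CPM in 1 library, are measured least precisely.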
